A study of Mus musculus with 6 samples.

Results

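The dorsal column midline is described here from 3 of the 6 RNA-seq libraries of the series, replicates 2, 3 and 5. Where a symbol had several transcript rows, the one with the most counts over all 6 libraries was kept, which left 22869 genes. The midline libraries came from wild-type mouse embryos of mixed strain at E14.5, where E counts embryonic days. Their spinal cords were flash frozen and stained with hematoxylin, and the midline was cut out by laser capture microdissection, so each library holds the RNA of every cell in a cut piece of tissue. The labels call the material roof plate-derived cells of the dorsal column midline. The other 3 libraries, replicates 2, 8 and 9, held Ret-positive RA mechanoreceptors that had been sorted by fluorescence from dorsal root ganglia of embryos of the same day and of mixed strain. Those embryos carried the alleles Ret-CreERT2 and Rosa26-Tdtomato, so that cells active at the Ret gene when tamoxifen was given became labelled. The drug, 4-hydroxytamoxifen, was given orally to the pregnant mothers at 1.5 or 2 mg. The labels do not say whether replicates came from separate embryos or how many embryos were pooled.

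The roof plate is the strip of glial cells along the dorsal midline of the embryonic neural tube. It secretes BMP and Wnt proteins that pattern the dorsal cord, and later in development its cells stretch into a thin septum between the left and right dorsal columns, the tracts through which sensory axons ascend. Around that septum lie dorsal horn neurons, blood vessels and meninges, and outside the cord lie cartilage, muscle and skin.

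Total counts over all transcript rows were 8081153, 5599811 and 7971480 in midline libraries 2, 3 and 5, and 12031898 to 13801474 in the mechanoreceptor libraries. Levels are given as counts per 1000000 (CPM) scaled by the TMM method, always in the order of libraries 2, 3 and 5 for the midline. The floor of a library, 3 counts, was worth 0.471 to 0.666 CPM. Library 2 stood apart from the other midline libraries by genes of skeletal muscle, skin and connective tissue. The spread over all genes of at least 50 mean CPM and some fold changes are therefore also given without it. The ratios between captures given for gene lists, and for all genes beside them, use all 3 libraries. Sex-linked genes differed too. Xist, the RNA that silences 1 X chromosome in females, had 6.36, 1082 and 1963 CPM. The Y-linked genes Eif2s3y, at 119.6, 60.6 and 47.9 CPM, and Ddx3y, at 68.4, 29.7 and 27.8 CPM, were counted in all 3 libraries, and Xist was lowest in library 2, with 40 counts. The labels give neither sex nor embryo number.

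The levels of 6 genes fixed as markers of the label are given here as a description, not as an independent check of it. All 6 were counted in every midline library, as were 18679 of all 22869 genes. Gdf10, a BMP-family ligand of the roof plate, had 73.98, 185 and 512 CPM in the midline libraries, against 0.115, 0.474 and 0.255 CPM in mechanoreceptor libraries 2, 8 and 9 (log2 fold change 9.76 with SE 0.97, adjusted p = 0.000551 by edgeR's quasi-likelihood test). Wnt1, a ligand of the roof plate, had 23.5, 42.4 and 147 CPM and no count in any mechanoreceptor library. Its level was highest in library 5, and its mean was at least 589.9 times 3 counts over the mechanoreceptor group, or at least 274 times without library 5. Lmx1a, a transcription factor that specifies the roof plate, had 19.6, 15.3 and 75.1 CPM, against 0, 0.237 and 0.382 CPM in mechanoreceptors (log2 fold change 7.39 with SE 0.98, adjusted p = 0.00147). Zic1, a zinc finger factor of the dorsal neural tube, had 111, 442 and 392 CPM, against 4.84, 0.830 and 1.15 CPM (log2 fold change 7.10 with SE 0.83, adjusted p = 0.000971). These levels were lowest in library 2 for Zic1, Gdf10 and Wnt1, and in library 3 for Lmx1a.

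The other 2 markers are of radial glia and progenitors. Nes, the intermediate filament nestin of neural progenitors, had 449, 1195 and 1039.7 CPM in the midline libraries, against 22.9, 14.9 and 12.9 CPM in mechanoreceptors (log2 fold change 5.73 with SE 0.47, adjusted p = 0.000314). Fabp7, the brain fatty acid binding protein of radial glia, had 791, 2613 and 3397 CPM, against 143, 316 and 229 CPM (log2 fold change 3.31 with SE 0.56, adjusted p = 0.00366). The midline and mechanoreceptor groups did not overlap for any of the 6 genes. Every midline library was above every mechanoreceptor library in 27.3% of the genes tested. All 6 remained higher in the midline under each of the 12 alternative settings tried. Without library 5, the highest for both, the log2 fold change was 8.74 for Gdf10 and 6.28 for Lmx1a. Without mechanoreceptor library 2 it was 8.28 for Zic1 and 6.80 for Lmx1a, and without mechanoreceptor library 9 it was 8.07 for Lmx1a. Of all 15314 genes tested, 37.8% were called at an adjusted p under 0.05, and 18.9% were higher in midline libraries. Over all genes the median log2 fold change was 0.049, and with library totals only or upper-quartile scaling it was 0.390 or 0.259. Of the calls, 50.1% had the midline higher, and 70.2% or 63.1% with those scalings. By mean midline CPM per kilobase of transcript, Fabp7 had rank 2, Zic1 rank 381, Nes rank 266, Gdf10 rank 1205, Wnt1 rank 2312 and Lmx1a rank 6383, where rank 1 is the highest. The ranks by CPM within each library spread widely for some markers: Wnt1 stood at ranks 7795, 5116 and 1280 in libraries 2, 3 and 5, and Nes at ranks 158, 29 and 43.

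**Figure D1:**
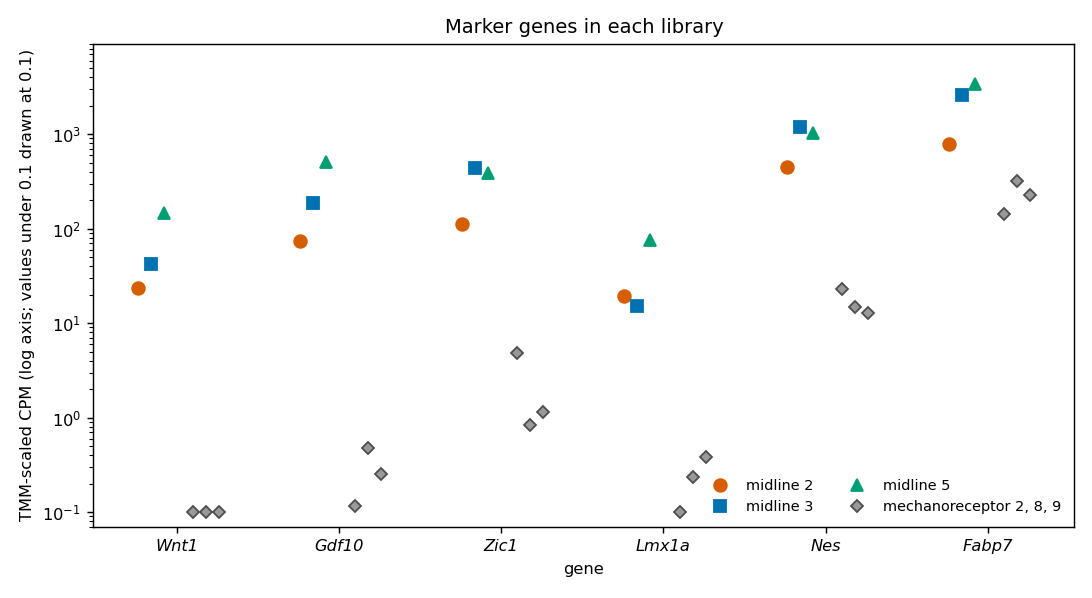
TMM-scaled CPM on a log axis of the 6 marker genes, with the 3 midline libraries left of the 3 mechanoreceptor libraries for each gene and values under 0.1 drawn at 0.1. Every midline point lies above every mechanoreceptor point of its gene, and library 2 is the lowest midline library for 5 of the 6 genes.

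In the midline libraries 18679 genes had a count in all 3, and 968 had none in any. At least 1 CPM in all 3 was reached by 14815 genes, 10 CPM by 9593, 100 CPM by 1485 and 1000 CPM by 19. By mean CPM the first 20 genes mixed glial, neuronal and household transcripts with muscle. Malat1, a nuclear long noncoding RNA, came first with 13631 ± 2385 CPM (SD, n = 3). Ttn, which encodes the giant muscle protein titin, came second by the mean, but with 22487, 186 and 2078 CPM it was the most abundant transcript only in library 2. Mtap1b, a microtubule-associated protein gene of growing neurons, had 2741, 7135 and 6647 CPM and was ranked second in libraries 3 and 5. Igfbp5, a secreted binding protein of insulin-like growth factors, had 1306, 2922 and 5302 CPM, highest in library 5.

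These ranks by CPM favour long transcripts, so levels of different genes are better compared per kilobase of transcript. On that scale Dbi, the diazepam binding inhibitor of glia, was first with 1328, 3250.5 and 6640.1 CPM per kilobase, and Fabp7 second with 984, 3249 and 4225 CPM per kilobase. Both were lowest in library 2 and highest in library 5. Rpl41, a ribosomal protein gene, followed with 2280.2, 3030.1 and 2700.3 CPM per kilobase, and D0H4S114, now Nrep, a small protein gene of growing neurons, with 1446, 3499 and 2793 CPM per kilobase. Malat1 then had rank 5 and Ttn, with a transcript of 100404 bases, rank 579 by the mean. Of the 100 genes with the highest CPM in each library, 48 were common to all 3, 65 to libraries 3 and 5, 55 to 2 and 5, and 52 to 2 and 3.

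The spread between captures was wide. Over the 4575 genes of at least 50 mean CPM, the median coefficient of variation was 0.215 between the midline libraries, of which counting error alone would give 0.0429. The mechanoreceptor libraries, by the same rule on 4919 genes, had 0.121 and 0.0332. The highest midline library exceeded the lowest at least 4-fold in 305 genes (6.67%), against 4 genes (0.0813%) between the mechanoreceptor libraries. At the other end, 1019 genes (22.3%) differed by a ratio of at most 5 to 4 between the midline libraries, against 2347 (47.7%) between the mechanoreceptor libraries. Without midline library 2, libraries 3 and 5 differed at least 4-fold in 1.39% of genes and by at most 5 to 4 in 49.3%. Pairs of mechanoreceptor libraries differed at least 4-fold in 0.0203% to 0.0608% of genes and by at most 5 to 4 in 63.7% to 79.6%. The common biological coefficient of variation of edgeR was 0.399 for the midline and 0.221 for the mechanoreceptors. It was 0.334 without midline library 2, 0.380 without library 3 and 0.444 without library 5. Pairs of midline libraries lay within 2-fold of each other in 81.01% of these genes for libraries 2 and 3, 86.9% for 2 and 5, and 87.3% for 3 and 5. The groups also differ in how cells were isolated and in depth, which cannot be told apart from the tissue.

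**Figure D2:**
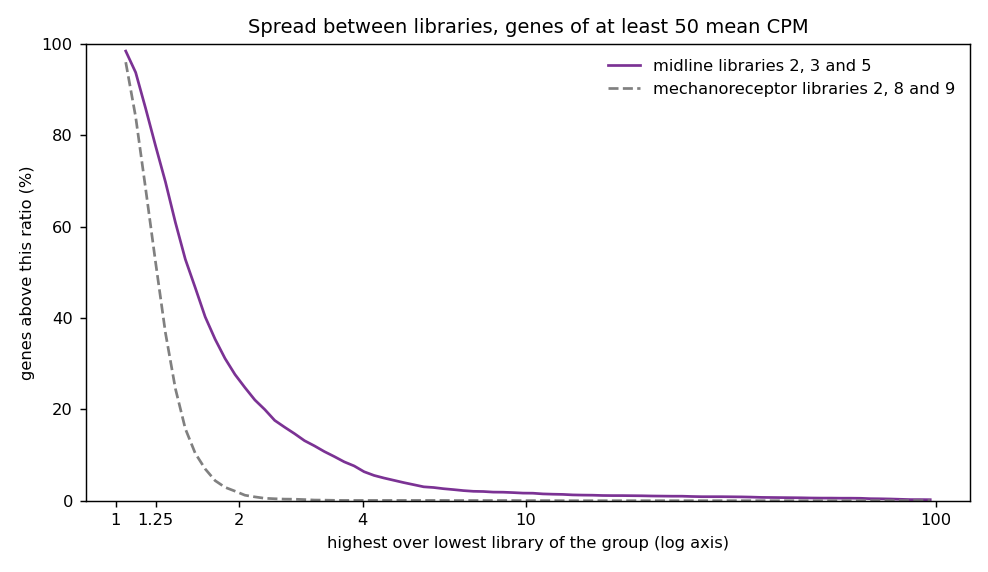
Share of genes of at least 50 mean CPM whose highest library exceeds the lowest of its group by more than the ratio on the log x axis, for the 3 midline and the 3 mechanoreceptor libraries. The midline curve lies above the mechanoreceptor curve at each ratio drawn, and 22.3% of midline genes against 47.7% of mechanoreceptor genes lie at or under a ratio of 5 to 4.

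A gene was said to stand apart in a midline library when it had at least 50 CPM there and at least 4 times the higher of both other midline libraries. This held for 171 genes (3.86% of those with 50 CPM) in library 2, 13 (0.294%) in library 3 and 17 (0.376%) in library 5. In the mechanoreceptors it held for 1 gene in library 2 and none in libraries 8 and 9. Of these, 52 genes of library 2, 1 of library 3 and 1 of library 5 belonged to a gene list used here. With only 3 libraries these contrasts have no test. Members of lists are counted below where they had at least 10 mean CPM. A gene can reach that mean through 1 library alone. Counts of members highest in a library, and ratios between libraries, thus describe a list and test nothing.

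**Figure D3:**
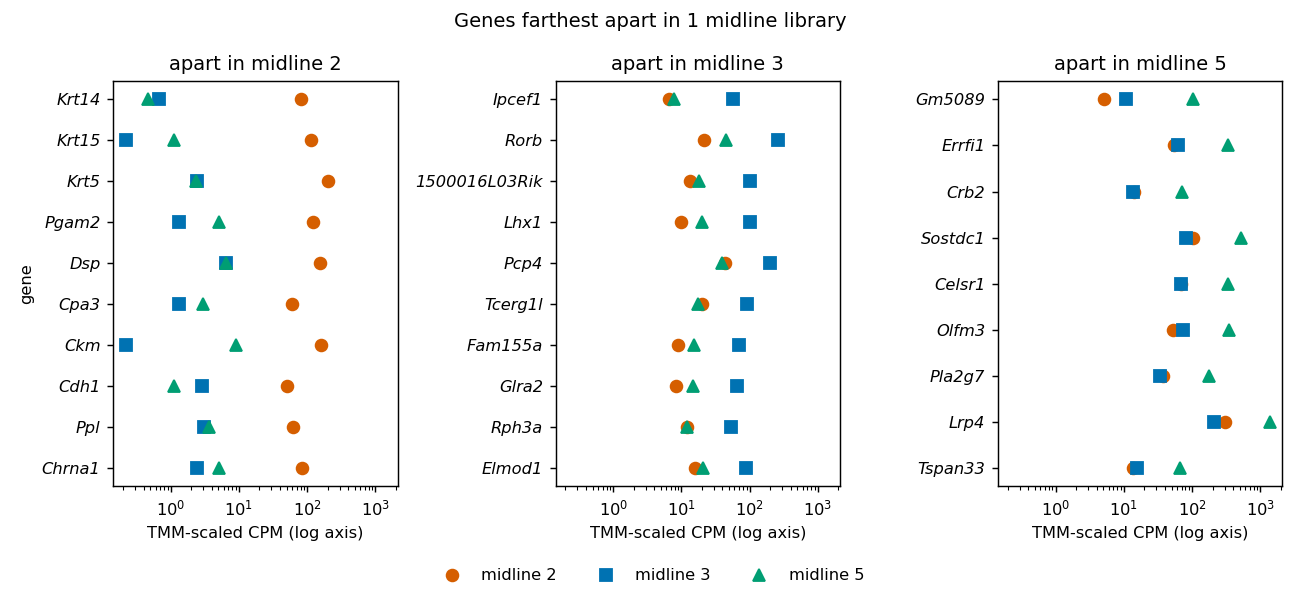
TMM-scaled CPM on a log axis of genes farthest apart in each midline library, 10 each for libraries 2 and 3 and 9 for library 5, with all 3 midline libraries shown. The library named above each panel lies to the right of both others for each gene, by the rule that chose them.

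Skeletal muscle genes were high in library 2. The muscle list held 26 genes of the contractile apparatus and of myogenic factors. Of these, 23 had at least 10 mean CPM, and all 23 were highest in library 2, where 34.9% of all genes at that level were highest. A gene can reach that mean through library 2 alone, so this count and the ratio that follows describe the list and test nothing. The median ratio of highest to lowest library, each taken at no less than 3 counts, was 74.1 in these genes and 1.60 over all 11049 genes of at least 10 mean CPM. Of the 171 genes apart in library 2, 22 came from this list, whose members together reached 44880.3, 488 and 4341 CPM. Myh3, the embryonic myosin heavy chain, had 4267, 26.4 and 475 CPM, Neb, the thin filament protein nebulin, 3699, 49.9 and 336 CPM, and Actc1, the cardiac actin that embryonic skeletal muscle also uses, 2959.9, 31.3 and 266 CPM. Each was lowest in library 3, and library 5 lay between both other libraries. Pgam2, the phosphoglycerate mutase of muscle, had 124, 1.33 and 5.03 CPM, and Ckm, the muscle creatine kinase, 162, 0.222 and 8.96 CPM. The myogenic regulator Myod1 had 32.5, 0 and 7.86 CPM.

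Where these muscle genes start, the RefSeq table of promoters (GRCm38.p6) gives the 250 bases before the start, which are shown for 2 actin genes that moved together and for the myosin light chain gene Mylpf, at 2183, 27.7 and 201 CPM, to let the upstream sequence be read beside the levels. Acta1, skeletal actin, had 1200.3, 11.5 and 121 CPM. Capitals mark the CArG box, to which serum response factor binds, the E-box CAGCTG, which myogenic factors can bind, and TATAAA, on both strands and without overlap among them in these 3 promoters.
Acta1, chr8:123894776-123895025, minus strand: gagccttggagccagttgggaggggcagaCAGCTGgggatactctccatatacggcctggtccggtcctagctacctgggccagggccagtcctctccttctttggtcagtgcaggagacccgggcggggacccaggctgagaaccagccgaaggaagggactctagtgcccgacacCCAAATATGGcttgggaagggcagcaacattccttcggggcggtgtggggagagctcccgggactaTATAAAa
Actc1, chr2:114052876-114053125, minus strand: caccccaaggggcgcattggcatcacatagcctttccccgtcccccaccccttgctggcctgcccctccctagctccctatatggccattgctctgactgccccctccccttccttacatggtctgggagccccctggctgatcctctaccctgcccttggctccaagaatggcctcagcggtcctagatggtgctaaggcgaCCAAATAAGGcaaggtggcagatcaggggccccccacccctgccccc
Mylpf, chr7:127211358-127211607, plus strand: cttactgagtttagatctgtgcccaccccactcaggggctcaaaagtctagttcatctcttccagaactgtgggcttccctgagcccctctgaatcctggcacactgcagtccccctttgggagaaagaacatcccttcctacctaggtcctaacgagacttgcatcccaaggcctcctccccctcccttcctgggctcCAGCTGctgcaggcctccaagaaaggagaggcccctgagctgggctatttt
Of the 26 muscle genes, 21 had a promoter in the table. Of these, 2 held a CArG box, against 1.47% of all 32851 promoters. These 2 are the actin promoters shown, so the sequences printed do not stand for the list. The promoter of Myh3, not printed, held TATAAA but neither a CArG box nor the E-box. The E-box CAGCTG stood in 9 muscle promoters, against 13% of all promoters, and TATAAA in 5, against 12.4% of all. The 13 roof plate genes with a promoter in the table had none of these motifs in the same window. Of 9 keratinocyte promoters, 2 held TATAAA and 1 the E-box. Of 14 promoters of the connective tissue list, 3 held TATAAA and 2 the E-box. Neither of these lists held a CArG box. The lists are small, and differences between these shares were not tested. These are matches of letters and not sites of binding.

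Genes of the skin were high in library 2 and low in both other libraries. Of 14 keratinocyte genes, 8 had at least 10 mean CPM, and all 8 stood apart in library 2, as did 3.86% of all genes with at least 50 CPM there. As for muscle, a gene can reach that mean through library 2 alone, so this count is a description only. Krt5, the keratin of basal epidermis, had 203, 2.44 and 2.36 CPM, and its partner Krt14 81.6, 0.666 and 0.471 CPM, which in libraries 3 and 5 is no more than the floor. Dsp, the desmosome protein desmoplakin, had 155, 6.43 and 6.44 CPM, and Cdh1, the epithelial cadherin, 51.1, 2.88 and 1.10 CPM. The summed keratinocyte level was 929, 44.2 and 54.4 CPM. Cpa3, a protease of mast cells, which reside in skin and connective tissue, had 60.3, 1.33 and 2.99 CPM.

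Connective tissue genes followed the same order of libraries as muscle, with library 2 highest, library 5 next and library 3 lowest in their sum. Of 20 genes of meninges and connective tissue, 16 had at least 10 mean CPM, 15 of them highest in library 2, and 8 stood apart there. Of all genes at that level, 34.9% were highest in library 2, and 3.86% of those with at least 50 CPM there stood apart. As for muscle, a gene can reach that mean through library 2 alone, so these counts are a description only. Their summed level was 9754, 1086 and 2156 CPM. Col3a1, a fibrillar collagen of soft tissue, had 2613, 230.1 and 415 CPM, Col1a2 2003, 183 and 339 CPM, Col1a1 1408, 126 and 220.5 CPM, and Fn1, fibronectin, 877, 259 and 539.8 CPM. Foxc1, a transcription factor that marks the meninges, did not follow the collagens: at 10.02, 15.8 and 13.2 CPM it was highest in library 3. Of 17 cartilage genes 12 had at least 10 mean CPM and 9 of these were highest in library 2, a count with the same limit. Col2a1, the collagen of cartilage, had 484, 147 and 251 CPM, and library 3 was lowest. Smooth muscle genes summed to 535, 38.8 and 149 CPM, led by Acta2, smooth muscle actin, at 373, 9.32 and 77.3 CPM.

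Neuronal genes were highest in library 3. All 17 pan-neuronal genes were highest there, where 34.6% of all genes of at least 10 mean CPM were, and their summed level was 2082, 7660.1 and 2549 CPM. Dcx, the microtubule protein doublecortin of young neurons, had 618, 2654 and 735 CPM, Stmn2, a tubulin-binding protein of growth cones, 254, 890.4 and 285 CPM, and Snap25, of the synaptic fusion machinery, 105, 491 and 162 CPM. For these genes library 3 lay at least 3 times above each of the others. Mtap2, a microtubule-associated protein of dendrites, had 167, 634 and 234 CPM, and library 3 exceeded library 5 by a smaller factor of 2.72. In mechanoreceptors, which are neurons, the same list summed to 26211, 27881 and 32809 CPM.

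Of the neuronal lists, that of dorsal horn neurons using GABA or glycine had the largest median ratio between captures. Of 12 genes of dorsal inhibitory neurons, 9 had at least 10 mean CPM. All 9 were highest in library 3 (34.6% of all genes at that level), with a median ratio of highest to lowest of 7.03. The list summed to 179, 1224 and 407 CPM. Tfap2b, a transcription factor of these cells, had 47.1, 323 and 103 CPM, and Gad2, which makes GABA, 40.1, 282 and 95.4 CPM. Pax2, a factor of the inhibitory fate, had 15.9, 197 and 69.9 CPM and Gad1, the other GABA-making enzyme, 17.8, 118 and 40.2 CPM. Ptf1a, which starts that fate in progenitors, had no count in any midline library. Per unit of pan-neuronal signal the inhibitory sum was 0.0857, 0.160 and 0.160, close to equal in libraries 3 and 5 and lower in library 2. Genes of dorsal excitatory neurons summed to 562, 1246 and 404 CPM, mainly through Ebf3, a helix-loop-helix factor, at 328, 931 and 285 CPM, and 4 of the 5 members of at least 10 mean CPM were highest in library 3.

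Lhx1 was the member of a list among the 13 genes apart in library 3. Rorb, a nuclear receptor found in dorsal horn interneurons, had 21.5, 263 and 44.8 CPM, and Lhx1, a homeodomain factor of inhibitory interneurons, 10.02, 100.3 and 19.96 CPM. Grm5, a metabotropic glutamate receptor, had 63.5, 529 and 131 CPM, and Glra2, a subunit of the glycine receptor, 8.43, 64.3 and 14.6 CPM. Pcp4, a calmodulin regulator, had 42.96, 197 and 39.1 CPM. Rorb, Lhx1, Glra2 and Grm5 were lowest in library 2, and Pcp4 was lowest in library 5.

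Roof plate genes were mostly highest in library 5. Of 17 roof plate genes, 13 had at least 10 mean CPM, and 11 of them were highest in library 5, where 30.5% of all genes at that level were. Their median ratio of highest to lowest was 5.39, 8 of the 13 reached 4-fold (7.97% of all genes at that level), and the list summed to 475, 1296 and 2123 CPM. Zic4, a zinc finger factor, had 108, 341 and 363 CPM. Msx1, a homeodomain factor induced by BMP, had 21.6, 37.7 and 148 CPM, and Rspo3, a secreted enhancer of Wnt signalling, 33.4, 28.8 and 109 CPM. Bmp6, a roof plate ligand, had 14.48, 31.9 and 88.3 CPM. The 2 exceptions were Zic1 and Msx2, which were highest in library 3. Gdf7, a further BMP of the roof plate, stayed under 10 CPM in each library, at 2.23, 0.444 and 7.70 CPM.

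Radial glial genes were also mostly highest in library 5, with 15 of the 22 members of at least 10 mean CPM (30.5% of all genes at that level). Their summed level was 5560, 9994 and 14869 CPM. Dbi had 756, 1849.5 and 3778 CPM, and Vim, the intermediate filament vimentin, 1135, 1054 and 2028 CPM. The list did not move as 1 block. Slc1a2, a glutamate transporter, was highest in library 3 at 147, 779 and 407 CPM, and Tnc, the matrix protein tenascin C, was highest in library 2 at 172, 128 and 61.6 CPM. Gfap, the filament of mature astrocytes, stood near the floor at 1.59, 1.33 and 2.20 CPM. The roof plate sum was 0.0854, 0.130 and 0.143 times the radial glial sum in libraries 2, 3 and 5, so this ratio was also lowest in library 2. In bulk samples such as these, fewer cells of a type and less RNA per cell cannot be told apart. The sums of the muscle, keratinocyte and connective tissue lists were highest in library 2, where the sums of the roof plate and radial glial lists were lowest, and their part in these differences was not tested.

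Efnb3, a guidance ligand described below with its family, was the member of a list among the 17 genes apart in library 5. Lrp4, a receptor of agrin and of Wnt modulators, had 307, 213 and 1364 CPM, and Sostdc1, a secreted inhibitor of Wnt and BMP that binds Lrp receptors, 105, 80.5 and 527 CPM. Celsr1, a cadherin of planar cell polarity, had 69.1, 69.9 and 335 CPM, and Crb2, an apical polarity protein, 14.2, 13.5 and 72.3 CPM. Errfi1, an inhibitor of EGF receptor signalling, had 54.4, 62.3 and 341 CPM. In all of these, libraries 2 and 3 lay within a factor of 2 of each other. Spp1, the secreted protein osteopontin, did not follow that pattern at 8.59, 94.7 and 399 CPM. The antisense transcript Msx1as had 25.1, 40.4 and 169 CPM, and since strand was not stated its reads cannot be told apart from those of Msx1.

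**Figure D4:**
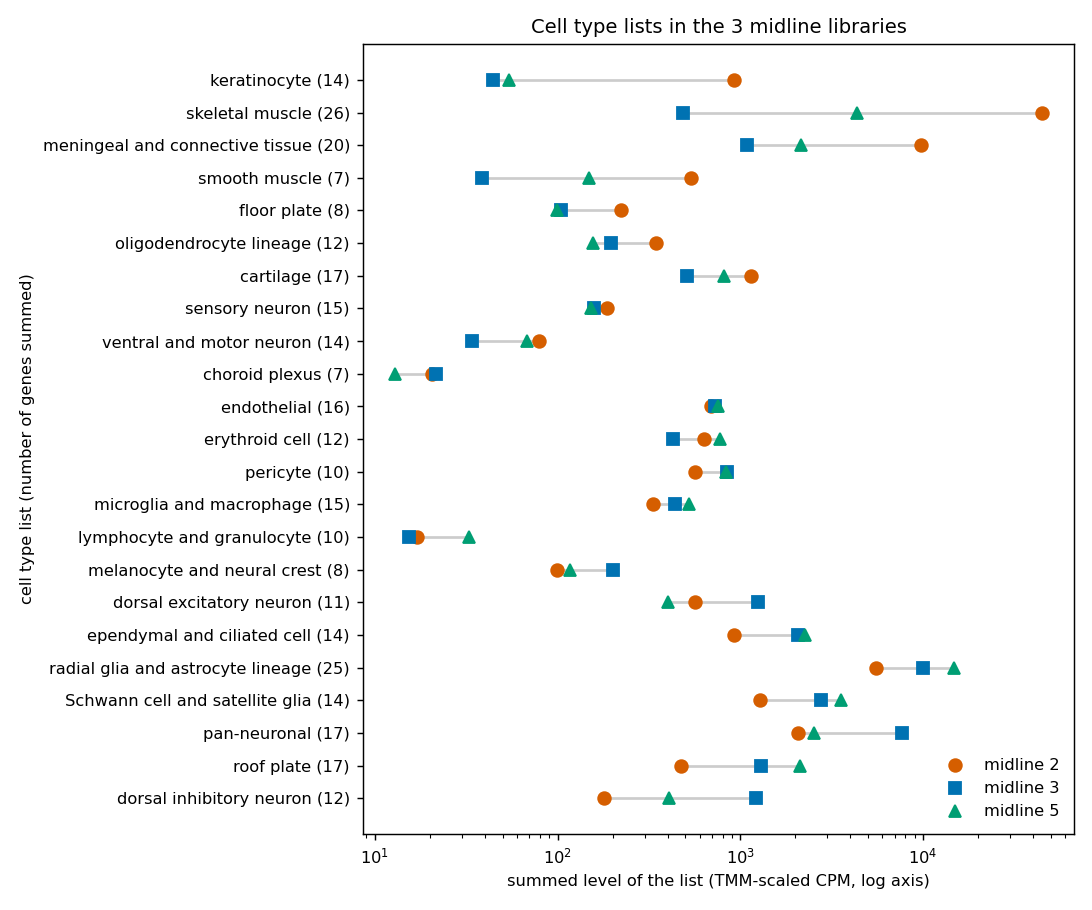
Summed TMM-scaled CPM on a log axis of 23 cell type lists in the 3 midline libraries, ordered by the ratio of library 2 to the higher of both other libraries. The endothelial sums lie between 689 and 759, and the skeletal muscle sums between 488 and 44880.3.

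Of the 23 cell type lists, that of blood vessel endothelium had the steadiest sum. Endothelial genes summed to 689, 725 and 759 CPM, and the median ratio of highest to lowest library in the 14 members of at least 10 mean CPM was 1.45, against 1.60 over all genes. Kdr, the receptor of vascular endothelial growth factor, had 106, 116 and 125 CPM in the midline, against 29.95, 6.52 and 13.9 CPM in mechanoreceptor libraries 2, 8 and 9 (log2 fold change 2.79 with SE 0.49, adjusted p = 0.00411), or a log2 fold change of 3.49 without mechanoreceptor library 2. Cdh5, the cadherin of endothelial junctions, had 146, 80.98 and 92.9 CPM, and Egfl7, an endothelial matrix protein, 70.01, 87.9 and 71.03 CPM. Cldn5, the tight junction claudin of the blood-brain barrier, was lower in library 2 at 28.5, 67.7 and 67.9 CPM. Of the 16 genes, 15 were higher in the midline than in mechanoreceptors, against 18.9% of all genes tested. Pericyte genes, among them Zic1, which also stands in the roof plate list, summed to 567, 845 and 831 CPM. Without Zic1 the sum was 455, 403 and 438 CPM, and library 2 was then highest instead of lowest. Abcc9, a subunit of the potassium channel of pericytes, had 148, 103 and 115 CPM in the midline, against 1.50, 2.37 and 2.29 CPM in mechanoreceptors (log2 fold change 5.89 with SE 0.30, adjusted p = 8.02e-05).

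Blood and immune cells left traces in every capture. Red cell genes, with each identical globin pair counted once, summed to 634, 428 and 778 CPM. The adult alpha globin genes Hba-a1 and Hba-a2 had the same counts as each other, 191, 116 and 161 CPM, so the table does not separate them, and Hbb-y, an embryonic beta-like globin, had 88.5, 94.96 and 278 CPM. Microglia and macrophage genes summed to 331, 442 and 523 CPM. Csf1r, the receptor on which microglia depend, had 35.3, 73.9 and 71.8 CPM, and the complement gene C1qb 18.9, 39.9 and 68.5 CPM, both lowest in library 2. Mrc1, the mannose receptor of tissue macrophages, went the other way, at 75.1, 17.3 and 16.2 CPM. Genes of lymphocytes and granulocytes summed to only 17.02, 15.3 and 32.7 CPM.

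Some defining markers of the floor plate, the choroid plexus and ventral neurons were at or near 0. For the floor plate, the ventral counterpart of the roof plate, Shh, its secreted organiser, had 6, 1 and 2 counts in the 3 libraries and the factor Foxa2 1, 0 and 0. The list summed to 223, 105 and 99.3 CPM through Spon1, Sulf1 and Ntn1, which other tissues also express. Choroid plexus genes summed to 20.5, 21.5 and 12.9 CPM, and its main product Ttr, transthyretin, had 2, 6 and 3 counts. Ventral and motor neuron genes summed to 79.1, 33.9 and 68.4 CPM. Foxp2 was the largest member at 33.7, 18.9 and 44.3 CPM, followed by Isl1 at 10.8, 2.00 and 7.70 CPM. The motor neuron factor Mnx1 had 1, 2 and 0 counts, and the ventral interneuron factor Evx2 had none. Sensory neuron genes summed to 187, 158 and 152 CPM in the midline, against 8869, 9531 and 9829 CPM in mechanoreceptor libraries 2, 8 and 9. Of the 15 genes, all tested, 12 were higher in mechanoreceptors (18.8% of all genes tested) and none in the midline. The mechanoreceptors are sensory neurons sorted through a Ret allele, and the list holds Ret, so this count describes the sort and tests nothing. Ntrk3, the neurotrophin receptor TrkC, had 27.4, 48.6 and 25.6 CPM in the midline, against 34.1, 26.2 and 44.0 CPM in mechanoreceptors. Its groups overlapped and it was not called (log2 fold change -0.035 with SE 0.32, adjusted p = 0.941). Genes of the oligodendrocyte lineage summed to 348, 197 and 156 CPM, with Pdgfra, a receptor that fibroblasts also carry, at 205, 78.1 and 58.5 CPM. The list of Schwann cells and satellite glia, which also holds Fabp7, summed without it to 489, 142 and 165 CPM.

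Ependymal cells, which later line the central canal, bear motile cilia under the control of Rfx factors. Their list summed to 919.8, 2071 and 2248 CPM. Of 13 members tested, 4 were higher in the midline (18.9% of all genes tested) and 2 in mechanoreceptors (18.8%), or 1 under 5 of the 12 settings. Cd24a, a surface protein that neurons also carry, had 446, 1442 and 680.5 CPM in the midline, highest in library 3, against 1338, 1439 and 1396 CPM in mechanoreceptors, and was not called (log2 fold change -0.69 with SE 0.41, adjusted p = 0.209). Rfx4, a regulatory factor X protein of ciliogenesis, had 102, 119.8 and 443 CPM in the midline, against 2.42, 1.19 and 0 CPM in mechanoreceptors (log2 fold change 7.49 with SE 0.995, adjusted p = 0.0015). Rfx3, its relative, had 258, 372 and 978 CPM, against 62.6, 38.1 and 31.5 CPM (log2 fold change 3.61 with SE 0.54, adjusted p = 0.00237). Both were highest in library 5, without which the log2 fold change was 6.46 for Rfx4 and 2.81 for Rfx3. Without mechanoreceptor library 2 it was 8.45 for Rfx4. Foxj1, the master factor of motile cilia, was low at 0.318, 4.88 and 4.24 CPM, and Ccdc39, a component of the motile axoneme, was steady at 45.98, 51.03 and 47.6 CPM.

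Hox genes, whose paralog number follows the position along the body axis from head to tail, differed between captures. Groups 4 to 7 summed to 221, 391 and 715 CPM. Of their 11 members of at least 10 mean CPM, 10 were highest in library 5 (30.5% of all genes at that level). Groups 8 and 9 summed to 89.3, 545 and 531 CPM. Hoxb9 had 22.6, 208 and 239.97 CPM, from 142, 936 and 1527 counts, and Hoxc8 23.7, 131 and 157 CPM. Hoxc9 had 1, 127 and 101 counts. Libraries 3 and 5 were thus near each other in groups 8 and 9, and library 2 was far below both.

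Group 10 separated library 3 from library 5. Hoxa10 had 0, 49 and 3 counts and Hoxc10 1, 47 and 3 counts in libraries 2, 3 and 5. Summed over group 10 the level was 0.318, 21.3 and 0.943 CPM. Groups 11 to 13 stayed at or below 2.55 CPM in each library, and Hoxc11, Hoxc12, Hoxd11, Hoxd12 and Hoxb13 had no count in any midline library. Per group, library 2 lay below both others from group 5 to group 10. The labels do not give the level of the cord that was cut, and whether it differed between captures was not tested.

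**Figure D5:**
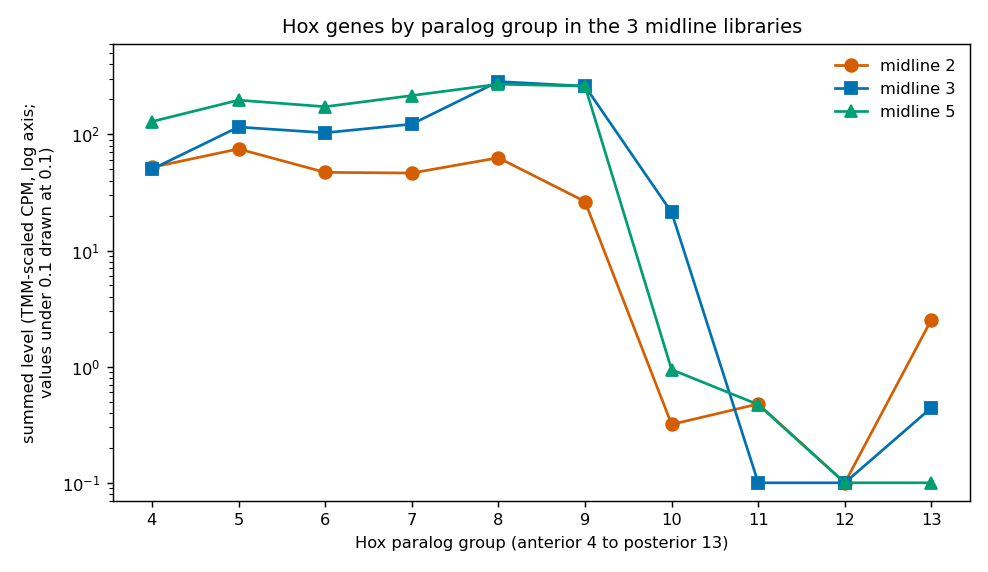
Summed TMM-scaled CPM on a log axis of the Hox genes of each paralog group in the 3 midline libraries, with values under 0.1 drawn at 0.1. The sums of library 2 fall below 30 CPM at group 9, where libraries 3 and 5 both stand near 260 CPM, and only library 3 stays above 10 CPM at group 10.

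Among secreted signals, Wnt ligands were mostly highest in library 5. Wnt ligands of at least 10 mean CPM numbered 6 of 19, and 5 of these were highest in library 5 (30.5% of all genes at that level). Wnt9a had 33.9, 25.5 and 99.9 CPM in the midline, against 3.57, 2.13 and 6.25 CPM in mechanoreceptors (log2 fold change 3.74 with SE 0.63, adjusted p = 0.00351), or a log2 fold change of 2.86 without library 5. Wnt5a, a ligand of non-canonical signalling, was nearly even at 48.2, 38.8 and 50.9 CPM, against 5.99, 2.85 and 3.44 CPM (log2 fold change 3.49 with SE 0.35, adjusted p = 0.000566). Of the 12 Wnt genes tested, 8 were higher in the midline and none in mechanoreceptors, against 18.9% and 18.8% of all genes tested. With at least 50 counts in 3 libraries required, 5 were higher in the midline. In the BMP list, 6, 1 and 4 of its 11 members of at least 10 mean CPM were highest in libraries 2, 3 and 5. Of all genes at that level, 34.9%, 34.6% and 30.5% were highest there. Fstl1, a secreted BMP antagonist also made by fibroblasts, had 881, 330.1 and 721 CPM, and Bmper, a BMP-binding protein, 42.8, 12.4 and 43.1 CPM.

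Axon guidance ligands were counted because midline cells can repel or guide axons. Efnb3, a transmembrane ephrin known as a midline barrier in the cord, had 317, 401 and 1612 CPM in the midline, against 12.4, 5.93 and 5.48 CPM in mechanoreceptors (log2 fold change 6.61 with SE 0.79, adjusted p = 0.00106). Slit2, a secreted repellent that acts through Robo receptors, had 229.9, 269 and 1059 CPM, against 96.8, 60.1 and 42.6 CPM (log2 fold change 2.97 with SE 0.63, adjusted p = 0.00881). Sema3c, a secreted semaphorin, had 98.6, 84.8 and 295 CPM, against 7.95, 9.61 and 7.78 CPM (log2 fold change 4.24 with SE 0.52, adjusted p = 0.00114). In each of the 3 genes library 5 was highest and the other midline libraries lay close together, and every midline library was above every mechanoreceptor library. Without library 5 the log2 fold change was 5.46 for Efnb3, 1.88 for Slit2 and 3.41 for Sema3c, each still called. Efnb2, another transmembrane ephrin, had 149, 164 and 361 CPM in the midline, against 322, 268 and 289 CPM in mechanoreceptors, with groups that overlapped and no call (log2 fold change -0.38 with SE 0.34, adjusted p = 0.41). Other ligands had another order, as for Sema3a, which stood apart in library 2 at 75.6, 9.98 and 12.1 CPM. Sema5a, a membrane-bound semaphorin, had 224, 105 and 44.2 CPM. Over the 18 ligands of at least 10 mean CPM, 6 were highest in each library. Of all genes at that level, 34.9%, 34.6% and 30.5% were highest in libraries 2, 3 and 5. Of the 24 tested, the midline was higher in 5 and the mechanoreceptors in 7 (18.9% and 18.8% of all genes tested), or in 6 each when scaled by library totals or by the upper quartile.

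Proteoglycans, which line axon tracts and can bar axon growth, did not share 1 order of libraries. Ptprz1, a receptor phosphatase of radial glia, had 244, 444 and 802 CPM and was highest in library 5. Ncan, neurocan, a chondroitin sulphate proteoglycan of neural tissue, had 128, 501 and 179 CPM and was highest in library 3, and Vcan, versican, had 983, 139 and 182 CPM and stood apart in library 2. Of the 18 members of at least 10 mean CPM, 12, 3 and 3 were highest in libraries 2, 3 and 5. Of all genes at that level, 34.9%, 34.6% and 30.5% were highest there. At least 4-fold differences between captures were seen in 8 of the 18, against 7.97% of all genes at that level.

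Proliferation genes were highest in library 2 without exception in the lists used. All 18 S phase genes and all 18 mitosis genes were highest there, where 34.9% of all genes of at least 10 mean CPM were. The S phase sum was 1117, 518 and 606 CPM and the mitosis sum 2508, 766 and 957 CPM. Mki67, a protein of cycling cells, had 846, 233 and 308 CPM in the midline, against 97.6, 60.95 and 65.6 CPM in mechanoreceptors (log2 fold change 2.64 with SE 0.50, adjusted p = 0.00551). Top2a, the topoisomerase of dividing cells, had 361, 89.2 and 138 CPM, against 43.8, 21.9 and 24.6 CPM (log2 fold change 2.71 with SE 0.54, adjusted p = 0.00679). Mcm6, of the replicative helicase, had 118, 48.8 and 59.6 CPM. Without library 2 the log2 fold change was 1.83 for Mki67 and 1.90 for Top2a. Libraries 3 and 5 lay near each other in both lists. The mitosis sum was 0.451, 0.0767 and 0.0644 times the radial glial sum in libraries 2, 3 and 5. The same library held the muscle, skin and connective tissue genes, whose part in the mitosis sum was not tested.

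Genes of oxidative phosphorylation and of cholesterol synthesis had smaller median ratios between captures than all genes. Nuclear genes of oxidative phosphorylation, 80 by a name rule, summed to 8531, 8608 and 8333 CPM, and the 74 members of at least 10 mean CPM had a median ratio of highest to lowest of 1.29. Atp5b, the beta subunit of ATP synthase, had 1866, 1388 and 1397 CPM. Cholesterol synthesis genes summed to 757, 831 and 811 CPM with a median ratio of 1.41. Cyp51, a demethylase of this pathway, had 129, 150.2 and 136 CPM. Common reference genes had a median ratio of 1.33, among them Eef1a1, a translation factor, at 2679, 3207 and 2556 CPM, and Actb, beta-actin, at 1471, 1602 and 1875 CPM. Tuba1a, a tubulin of young neurons that the same list holds, was not even at 1096, 3017 and 2376 CPM. All genes of at least 10 mean CPM had a median ratio of 1.60.

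Ribosomal protein genes were almost as even, with a median ratio of 1.41 over 79 genes. However, 55 of them were highest in library 3 (34.6% of all genes of at least 10 mean CPM). Their sum was 18199, 21386 and 16902 CPM. Rpl29 was an exception at 2.86, 109 and 135 CPM, from 18, 493 and 861 counts. Gapdh, the glycolytic enzyme often used as a reference, had only 81, 15 and 36 counts, or 12.9, 3.33 and 5.66 CPM, against 10.6, 11.03 and 7.65 CPM in mechanoreceptors. Both genes have many near-identical processed copies in the mouse genome, and how reads that match several places were counted is not given in the sources used here, so their levels are uncertain.

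Heat shock and unfolded protein genes of at least 10 mean CPM had a median ratio of 1.34, with 4, 4 and 3 members highest in libraries 2, 3 and 5. Of all genes at that level, 34.9%, 34.6% and 30.5% were highest there. Hspb1 was an exception to the small ratio, at 55.5, 2.44 and 7.54 CPM, and stood apart in library 2. Hspa5, the chaperone of the endoplasmic reticulum, had 679.8, 371 and 926 CPM, lowest in library 3. Immediate early genes, which handling can induce, summed to 286, 218 and 221 CPM in the midline, against 610.4, 476 and 742 CPM in mechanoreceptors. Fos, an AP-1 factor among them, had 2.07, 0.444 and 2.51 CPM. Hypoxia and glycolysis genes were less even, with a median ratio of 2.23. Of 13 members, 7 were highest in library 2 (34.9% of all genes of at least 10 mean CPM). They summed to 1867, 1275 and 1438 CPM, with Aldoa, an aldolase, at 485, 206 and 298 CPM and Slc2a1, the glucose transporter of brain vessels, at 122, 270.02 and 272 CPM, so the order of libraries differed within the list.

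Among the 10 steadiest single genes of at least 100 mean CPM was Baz2b, a chromatin reader, at 198, 196 and 197 CPM. Atp5o, a subunit of ATP synthase, had 143, 142 and 140.3 CPM, and Eif3c, of translation initiation, 250.3, 256 and 253 CPM. Also among the 10 were Alg11, Atf7ip, Dusp11, Gapvd1, Senp6 and Dyrk1a, whose highest library exceeded the lowest by a factor of at most 1.03. These genes were ranked by their evenness, so the values describe the end of the distribution.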

How the data were processed

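Per the labels' protocols, RNA was purified with the GeneJet kit and libraries followed Illumina protocols. The authors deposited raw counts, whole numbers for each RefSeq transcript. The submitters' processing notes name the build mm9 and edgeR. The aligner, the counting tool and strand are not given in the sources used here. Of 22869 symbols, 3705 had more than 1 transcript row. Tests were run in R 4.3.3 with edgeR 4.0.16, using filterByExpr (minimum count 10, total 15), TMM scaling and the quasi-likelihood F test of midline over mechanoreceptor, adjusted by Benjamini and Hochberg at 0.05. Log2 fold changes are midline minus mechanoreceptor, and SE is the log2 fold change over the square root of F. The scripts were tested on simulated data. P-values reflect the spread of these 6 libraries alone, which may be technical. Floors and the counting part of the coefficient of variation cover counting error only. Transcript lengths came from GENCODE M21, found for 97.2% of genes, and promoters from the RefSeq table of GRCm38.p6. Of 14068 genes with 100 counts, 12 shared all 6 counts with another symbol.

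The members and the gene lists were chosen with earlier results of these data known. The genes named are the 6 markers, the 20 of highest mean CPM, the 10 farthest apart per library, the 10 steadiest of at least 100 mean CPM, and up to 4 per list by mean CPM with those at 0. Acta1, Cdkn1c, Cldn5, Fos, Foxa2, Foxc1, Foxj1, Gapdh, Gas5, Gdf7, Gfap, Grm5, Hoxc9, Hspb1, Kcnq1ot1, Mnx1, Mrc1, Msx1, Msx1as, Msx2, Mylpf, Myod1, Nnat, Rpl29, Rspo3, Sema3a, Sema5a, Shh, Slc1a2, Snap25, Snhg11, Snrpn, Spp1, Tnc and Ttr were added after their values were seen. Not every gene that this rule takes is described, and a few are not reported here. Alternatives were other scalings, DESeq2 1.42.0, other filters and transcript rows, other limits of level and fold, and leaving out each library.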

Additional observations from a re-analysis of the deposited data

How the results depend on the processing

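With library totals only, 1827 genes were higher in mechanoreceptors, against 2886 with TMM; by the other settings that kept all 6 libraries, the counts of calls stayed within 1.5 times. Leaving out each library in turn gave 3755 to 6182 calls, 1862 to 3082 of them higher in the midline and 1893 to 3100 higher in mechanoreceptors, with the fewest calls without mechanoreceptor library 8. The named log2 fold changes that were called kept their call under all 12 settings.

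With a minimum of 10 CPM, the genes apart numbered 373 in library 2, 45 in library 3 and 35 in library 5, the steady genes 1973, and the median coefficient of variation was 0.244. At 8 times the higher of both others, 67, 0 and 1 genes stood apart in libraries 2, 3 and 5. With 1 midline library left out, the genes apart numbered 182 to 261 in library 2, 35 to 138 in library 3 and 56 to 88 in library 5, steady genes 1701 to 2231, and the median coefficient of variation was 0.161 to 0.223; each is then a comparison of 2 libraries. The steady genes numbered 2231 without library 2. Of the list sums, 10 moved by more than 1 SD and 279 did not, over all settings. Counts of list members called moved by over 1.5 times in 147 cases and did not in 861. Of the 20 ranks by CPM, 7 moved per kilobase, among them that of Ttn, 2 by CPM and 579 per kilobase. Shares of mechanoreceptor pairs were added after seeing the data. No paired analysis was possible because the groups share only the replicate number 2. The depth of the midline libraries leaves genes under 3 counts unresolved, and since each capture is 1 library no difference between captures can be tested.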

Other observations

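Imprinted genes, which are expressed from 1 parental copy and many of which promote or restrain fetal growth, were among the widest differences between the midline captures. Of 18 listed, 15 were highest in library 2, 12 differed at least 4-fold between captures and 7 stood apart in library 2. Of all genes of at least 10 mean CPM, 34.9% were highest in library 2 and 7.97% differed at least 4-fold, and 3.86% of those with at least 50 CPM in library 2 stood apart there. Library 2 was also highest for the muscle list, at 44880.3, 488 and 4341 CPM in libraries 2, 3 and 5, for keratinocyte genes, at 929, 44.2 and 54.4 CPM, and for connective tissue genes, at 9754, 1086 and 2156 CPM, and their part in this was not tested. Igf2, a fetal growth factor, had 5471, 564 and 1074 CPM in libraries 2, 3 and 5, and H19, the noncoding RNA beside it, 2783, 146 and 531 CPM. Mest, an enzyme-like protein of mesoderm, had 2182, 439.97 and 674 CPM, and Cdkn1c, an inhibitor of the cell cycle, had 1339, 137 and 175 CPM. Exceptions were Nnat, a small neuronal membrane protein, at 204, 695 and 328 CPM, and Snrpn, a splicing protein of neurons, at 72.6, 194 and 89.6 CPM, both highest in library 3, the library with the highest pan-neuronal sum.

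Long noncoding RNAs did not share 1 order. Meg3, an imprinted noncoding RNA, had 2163, 1006 and 566 CPM, and Kcnq1ot1, the antisense RNA of an imprinted domain, had 1402, 511 and 572 CPM, both highest in library 2. Snhg11, a noncoding RNA gene, had 357, 541 and 112 CPM and was highest in library 3, while Gas5, a host of small nucleolar RNAs, was more even at 614, 545 and 419 CPM.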
